A study of Mus musculus with 12 samples.

Results

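The 45 genes described here belong to the interferon response and to antigen presentation, and were read from a count table of 24061 mouse gene identifiers by matching their symbols; all 45 matched a row and all 45 had enough reads to be tested. They comprise 4 interferon receptor chains, 5 transcription factors of the interferon pathway, 21 interferon-induced genes, 10 genes of class I presentation and 5 genes of class II presentation. RNA was taken from whole hearts of male mice at 4 months of age. In the knockout, exon 12 of both floxed Slc4a4 alleles, which encode the sodium-bicarbonate cotransporter NBCe1, was targeted by a Cre recombinase transgene under the β-myosin promoter, so that it acts in cardiac myocytes. The wild type mice carried the same floxed alleles without Cre. Each group held 6 hearts, with the wild type named W1 to W6 and the knockout K7 to K12. Because the knockout mice alone carried Cre, loss of the transporter and the presence of Cre cannot be told apart, and RNA of endothelial, stromal and immune cells was part of every whole-heart library.

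Type I interferons bind the receptor chains Ifnar1 and Ifnar2, and interferon gamma binds Ifngr1 and Ifngr2. Type I signalling brings STAT2 and IRF9 to interferon-stimulated response elements, whereas interferon gamma acts on gamma-activated sites and through IRF1. The induced genes code for antiviral effectors and sensors, and also for parts of the class I pathway, in which the immunoproteasome cuts proteins, the TAP transporter moves the peptides and B2m pairs with the heavy chains H2-K1 and H2-D1. Class II molecules present peptides from outside the cell, mostly on macrophages, dendritic cells and B cells, and are switched on by Ciita, as class I genes are by Nlrc5. In the heart, class I genes are known to be expressed by nearly all cells, and class II genes mainly by resident immune cells.

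The libraries held 10631869 to 13327519 counts, with 16248 to 16919 genes detected, and knockout libraries were on average shallower (11274054 against 12455870 counts). Slc4a4 itself had a log2 fold change, knockout relative to wild type, of -0.81 ± 0.14 (SE, edgeR adjusted p = 0.089; exact two-sided permutation p = 0.00433 for this gene alone), and K8 overlapped the wild type. Liver and red cell transcripts were also compared between the groups. The summed level of 6 liver markers was 0.31 to 1.51 CPM in the wild type and 2.22 to 73.2 CPM in the knockout. Every knockout heart thus lay above every wild type heart, with K7 highest. Of the 6 markers, 5 had a mean under 1 CPM and only Alb was tested. Alb had an edgeR adjusted p of 0.083 and a DESeq2 adjusted p of 0.00315. All 5 red cell markers had estimates below 0 at an unadjusted p under 0.05 in edgeR, with a median log2 fold change of -0.82 and 0 called. In DESeq2 and in limma-voom, 1 of the 5 reached an unadjusted p under 0.05. Their summed levels overlapped, at 5469 to 30606 CPM in the wild type and 4560 to 10921 CPM in the knockout, and W2 was the highest heart.

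Promoter sequences are shown first, and were searched for the letters of known control elements. They come from RefSeq on GRCm38.p6, the build named by the submitters (mm10), and run from 250 bases before to 50 bases after a gene's start; 35 of the 45 genes had one and 10 did not. A response element searched on both strands as GAAA, any 2 bases and GAAA again was present in 12 of 16 interferon-induced genes with a promoter (75.0%), in B2m among 8 class I genes and in Stat2 among 5 transcription factors, against 1079 of 27025 promoters of all genes (3.99%). Isg15, Ifit1, Igtp and B2m are shown with these letters in capitals; in Isg15 3 matches overlap in 1 run, and in Ifit1 both matches lie on the other strand. All sequences here and below run 5′ to 3′ on the gene's own strand.
Isg15, chr4:156200839-156200938, minus strand: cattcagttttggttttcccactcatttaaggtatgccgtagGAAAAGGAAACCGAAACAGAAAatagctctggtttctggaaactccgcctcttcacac
Ifit1, chr19:34640759-34640858, plus strand: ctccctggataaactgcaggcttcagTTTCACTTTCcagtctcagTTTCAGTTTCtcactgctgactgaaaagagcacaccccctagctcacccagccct
Igtp, chr11:58199456-58199555, plus strand: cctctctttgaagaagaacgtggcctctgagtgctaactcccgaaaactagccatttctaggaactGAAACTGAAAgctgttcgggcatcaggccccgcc
B2m, chr2:122147497-122147596, plus strand: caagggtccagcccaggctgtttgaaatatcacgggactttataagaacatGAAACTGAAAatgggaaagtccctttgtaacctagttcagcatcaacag

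The gamma-activated site, searched as TTCNNNGAA on both strands, was present in 9.55% of all promoters. Irf1 was the transcription factor that held it, 90 bases before its start at the first base of the match, and it was also present in 5 of 16 interferon-induced genes, in Ifnar1 and Ifnar2, and in Psmb8. The Irf1 stretch has the site in capitals.
Irf1, chr11:53769884-53769983, plus strand: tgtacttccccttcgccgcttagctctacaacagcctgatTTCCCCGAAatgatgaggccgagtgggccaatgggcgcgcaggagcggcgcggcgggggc

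The Y box, searched as CTGATTGG on both strands, is part of the promoter module on which Ciita and Nlrc5 act. It was present in H2-K1, H2-D1, Tap1 and Psmb9 among 8 class I genes, in both class II genes with a promoter in the table, H2-Aa and H2-Eb1, and in none of the other members, against 4.7% of all promoters. Tap1 and Psmb9 lie head to head on chromosome 17, and their capitals are 1 and the same match read from the opposite strands. A match is a description of letters in this window and not a mapped binding site.
Tap1, chr17:34187306-34187405, plus strand: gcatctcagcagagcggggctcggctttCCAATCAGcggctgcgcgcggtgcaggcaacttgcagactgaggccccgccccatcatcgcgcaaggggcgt
Psmb9, chr17:34187331-34187390, minus strand: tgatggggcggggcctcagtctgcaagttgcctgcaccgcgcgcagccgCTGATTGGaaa
H2-D1, chr17:35262984-35263083, plus strand: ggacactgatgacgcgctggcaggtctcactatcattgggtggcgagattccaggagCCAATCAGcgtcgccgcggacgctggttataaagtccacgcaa
H2-Aa, chr17:34287834-34287933, minus strand: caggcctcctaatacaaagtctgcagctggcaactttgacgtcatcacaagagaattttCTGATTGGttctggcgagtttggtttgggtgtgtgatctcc
H2-Eb1, chr17:34305757-34305856, plus strand: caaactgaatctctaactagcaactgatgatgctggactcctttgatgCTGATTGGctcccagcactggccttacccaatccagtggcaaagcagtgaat

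The comparison of genotypes asked whether hearts with the myocyte deletion of Slc4a4 carried a raised or lowered interferon and presentation programme. None of the 45 genes passed the edgeR quasi-likelihood test at an adjusted p of 0.05, where the share called over all 13832 genes tested was 0.0%. Neither did any at an adjusted p of 0.1 (0.0217% of all genes) or in DESeq2 at 0.05 (0.057% of the genes it tested). At an unadjusted p under 0.05 the members also gave 0 of 45 in edgeR, DESeq2 and limma-voom, against 4.06%, 3.62% and 4.1% of the genes each tool tested. In edgeR these shares of all genes were 2.07% higher and 2.0% lower in the knockout. No member had groups that did not overlap, against 0.253% of all genes. The 95% interval of the fold change lay within 1.5-fold in either direction for 33 of the 45 genes and within 2-fold for 41, so that larger differences lay outside the interval for these genes. In whole-heart RNA, fewer cells of a type and less RNA per cell cannot be told apart, and this holds for every value below.

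Point estimates were below 0 for 32 of the 45 genes (71.1%), against 49.4% of all genes tested, with a median log2 fold change of -0.08 where that of all genes was 0.00. This split moved in both directions when single hearts were left out. Without W3 it was 22 of 45 (48.9%), with 12 genes changing sign, and without W5 it was 26 of 45 (57.8%). It was 36 of 45 (80.0%) without W4 and also without K10. The plot of fold changes gives all 45 estimates with their intervals.

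**Figure D1:**
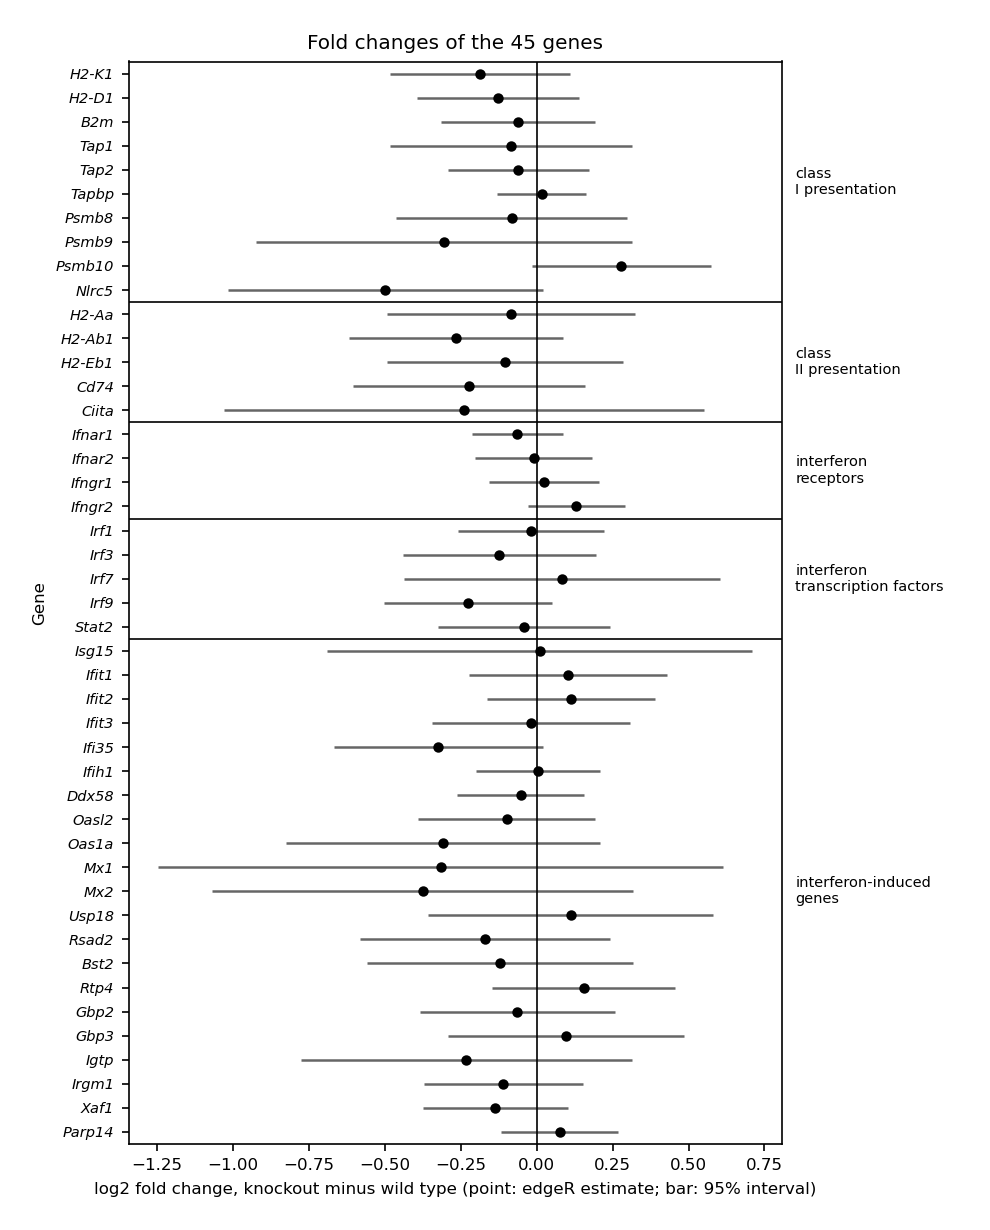
Log2 fold change of each of the 45 genes (x axis, knockout minus wild type; points are edgeR estimates and bars 95% intervals), grouped by role on the y axis. Every interval includes 0, with estimates from -0.50 (Nlrc5) to 0.28 (Psmb10), and the receptor chains have the shortest bars as a group.

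The interferon receptor chains were evenly expressed across hearts. Per length of annotated exon, the level over 12 hearts was 65.0 ± 6.88 CPM per kb for Ifngr2 and 24.5 ± 2.58 for Ifngr1, the interferon gamma chains, and 10.5 ± 0.759 for Ifnar1 and 9.30 ± 0.944 for Ifnar2, the type I chains (SD, n = 12). CPM are counts scaled to a library of 1000000 after TMM scaling. The exon length joins all annotated exons of a gene and can exceed its longest coding transcript. It was 5810 against 2259 bases for Irgm1 and 3798 against 1128 for H2-Aa. The order of genes by level per length, here and below, depends on this choice. The spread between hearts of 1 genotype, as the SD of log2(CPM + 0.5), had a median of 0.147 over these 4 genes, below the median of 0.175 over the 10759 genes that averaged 5 CPM or more.

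Ifngr2 (chromosome 16, 91547059 to 91564007), the signalling chain of the interferon gamma receptor, lay at 202.5, 226.4 and 270.2 CPM in the lowest, median and highest wild type heart, and at 233.2, 249.2 and 295.1 CPM in the knockout. The knockout hearts sat toward the upper part of the wild type range and overlapped it. The log2 fold change was 0.13 ± 0.077 (SE, edgeR unadjusted p = 0.105, adjusted p = 0.999). Ifnar1 (chromosome 16, 91485032 to 91510523) had a median of 64.0 CPM in the wild type and 61.3 CPM in the knockout, with a log2 fold change of -0.06 ± 0.072 (SE, edgeR adjusted p = 0.999). Ifnar2 and Ifngr1 had log2 fold changes of -0.01 and 0.02. For all 4 chains the interval excluded a 1.5-fold difference in either direction.

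Of the 5 transcription factors, Irf1 had the highest level per length at 4.26 ± 0.571 CPM per kb and Irf7 the lowest at 0.924 ± 0.265 (SD, n = 12 hearts). Irf1 (chromosome 11, 53770014 to 53778374), itself an interferon-induced activator, lay between 14.7 and 20.3 CPM in the wild type and between 14.2 and 21.3 CPM in the knockout, around medians of 17.1 and 16.2 CPM. Its log2 fold change was -0.02 ± 0.12 (SE, edgeR adjusted p = 0.999). W3 and K10 were the highest hearts of their groups for Irf1, and they were so for Irf7 and Irf9 as well.

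Irf9 (chromosome 14, 55603985 to 55610030), the DNA-binding partner of STAT2, had the smallest p of this group. It lay at 16.2, 19.8 and 22.3 CPM in the lowest, median and highest wild type heart and at 13.1, 15.7 and 21.9 CPM in the knockout, with a log2 fold change of -0.23 ± 0.13 (SE, edgeR unadjusted p = 0.104, adjusted p = 0.999). The groups overlapped, since K10 was close to the top of the wild type range. Irf3 (chromosome 7, 44997648 to 45002848), which acts directly downstream of nucleic acid sensors, had a log2 fold change of -0.12 ± 0.15 (SE, edgeR adjusted p = 0.999). Irf7 (chromosome 7, 141263183 to 141266499), the amplifier of type I interferon production, lay between 2.10 and 4.71 CPM in the wild type and between 1.88 and 5.002 CPM in the knockout, with a log2 fold change of 0.08 ± 0.25 (SE, edgeR adjusted p = 0.999). Its estimate was -0.02 without W6 and -0.03 without K10. Stat2 stood at -0.04 on the log2 scale, and the median of the 5 was -0.04, from -0.12 without K8 to 0.02 without W3.

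The 21 interferon-induced genes were all detected in every heart, from 2 reads of Mx1 in K12 upward. Per length of annotated exon, the guanylate-binding protein Gbp2 was the highest at 18.4 ± 4.13 CPM per kb. The GTPase Igtp followed at 12.2 ± 5.38 and the antiviral enzyme Rsad2 at 9.94 ± 3.08. Mx2 and Mx1, also antiviral GTPases, were the lowest at 0.559 ± 0.258 and 0.244 ± 0.141 (SD, n = 12 hearts). Gbp2 and Igtp are induced chiefly by interferon gamma, and Rsad2 and the Mx genes chiefly by type I interferon. Of the 21 estimates 8 were above 0 and 13 below, with a median of -0.06 and a range from -0.38 (Mx2) to 0.15 (Rtp4). That median ran from -0.14 without K10 to 0.02 without W3.

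**Figure D2:**
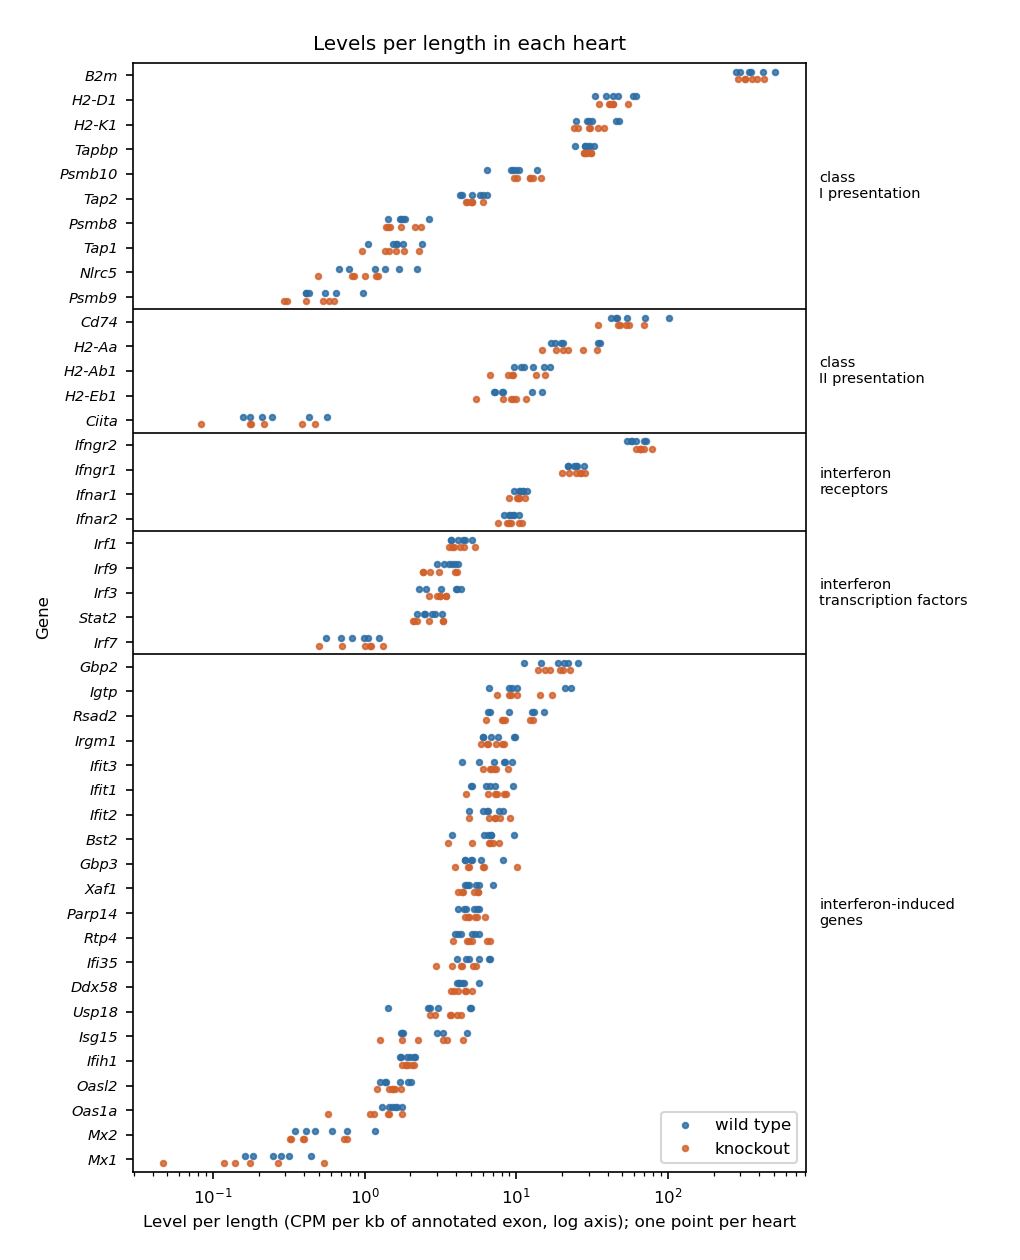
Level of each gene in each heart (x axis, CPM per kb of annotated exon, log axis; 1 point per heart, blue wild type and orange knockout), grouped by role and ordered by mean level within each role. B2m is the highest of the 45 genes at 359.8 CPM per kb and Mx1 the lowest at 0.244, and the points of both genotypes overlap in every gene.

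Ifi35 (chromosome 11, 101448412 to 101458701), an interferon-induced leucine zipper protein, had the smallest p of the induced genes. It lay at 7.02, 9.10 and 11.6 CPM in the lowest, median and highest wild type heart and at 5.07, 7.51 and 9.43 CPM in the knockout. The ranges overlapped over most of their length, and the log2 fold change was -0.32 ± 0.17 (SE, edgeR unadjusted p = 0.064, adjusted p = 0.999). The predicted gene Gm11626 on the opposite strand overlaps 16.8% of the exon bases of Ifi35, and the strand setting of the counting is not known here.

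Oas1a (chromosome 5, 120896256 to 120907544), which makes the 2-5A activator of RNase L in response to double-stranded RNA, lay at 2.44, 2.93 and 3.32 CPM in the lowest, median and highest wild type heart. In the knockout it lay at 1.07, 2.43 and 3.32 CPM, and the knockout values reached both below the wild type range and to its top. In edgeR the log2 fold change was -0.31 ± 0.25 (SE, edgeR unadjusted p = 0.227, adjusted p = 0.999), and -0.16 without K11. Oas1a shares 57.6% of its 50-base stretches with its near-copies Oas1g and Oas1b, so its reads could have been split between them. Oas1g had a log2 fold change of -0.42 ± 0.27 (SE, edgeR adjusted p = 0.999). Ifit3 shares 51.2% of its stretches with Ifit3b, and the 2 copies had log2 fold changes of -0.02 and -0.14.

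Isg15 (chromosome 4, 156199424 to 156200818), the ubiquitin-like modifier whose promoter is shown above, was low in every heart, with 12 to 44 reads. Its level was 2.26, 1.33, 3.57, 1.32, 2.48 and 1.35 CPM in W1 to W6 and 0.949, 3.36, 2.64, 2.50, 1.34 and 1.69 CPM in K7 to K12. High hearts (W3, K8) and low hearts (W4, K7) occurred in both groups, and the log2 fold change was 0.01 ± 0.34 (SE, edgeR adjusted p = 0.999). The estimate changed sign with upper-quartile scaling, with limma-voom and in 6 of 12 fits without 1 heart. Gbp2 (chromosome 3, 142620663 to 142638008) lay between 28.4 and 63.8 CPM in the wild type and between 34.7 and 56.8 CPM in the knockout, with a log2 fold change of -0.06 ± 0.15 (SE, edgeR adjusted p = 0.999). The estimate for Gbp2 was 0.04 without W3.

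The cytosolic RNA sensors Ifih1 (MDA5) and Ddx58 (RIG-I) were among the steadiest induced genes. Ifih1 had medians of 15.9 and 15.6 CPM in wild type and knockout and a log2 fold change of 0.00 ± 0.098 (SE). Ddx58 had medians of 30.3 and 30.7 CPM and a log2 fold change of -0.05 ± 0.10 (SE). The tetratricopeptide repeat proteins Ifit1 and Ifit2, which bind viral RNA or hinder its translation, stood at 0.10 and 0.11 on the log2 scale. Usp18, which removes Isg15 from proteins and dampens type I signalling, stood at 0.11. Rsad2, Bst2 and Xaf1 stood at -0.17, -0.12 and -0.14. None of these 8 genes reached an unadjusted p under 0.2 in edgeR.

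By the SD of log2(CPM + 0.5) within genotypes, the widest spread among the induced genes was in Igtp. It was 0.590, wider than in 99.5% of the genes that averaged 5 CPM or more. The added 0.5 narrows the spread of the lowest genes. The highest heart over the lowest was 11.6-fold for Mx1, with 2 to 26 reads, and 3.44-fold for Igtp. Igtp (chromosome 11, 58199556 to 58207592) ran from 13.5 to 46.4 CPM in the wild type, with W5 highest, and from 15.02 to 34.8 CPM in the knockout, with K10 highest, around medians of 19.8 and 19.6 CPM. Its log2 fold change was -0.23 ± 0.26 (SE). The related GTPase Irgm1 ran from 34.8 to 56.9 CPM in the wild type and from 33.9 to 48.1 CPM in the knockout. Igtp shares 12.3% of its 50-base stretches with Irgm2.

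Levels differed widely among the class I genes, with B2m the highest of the 45 genes. B2m (chromosome 2, 122147687 to 122153082), the light chain of every class I molecule, had 359.8 ± 67.6 CPM per kb, and the heavy chains H2-D1 and H2-K1 had 45.03 ± 8.93 and 32.6 ± 7.60 (SD, n = 12 hearts). The immunoproteasome subunit Psmb10 stood at 10.9 ± 2.27 CPM per kb, well above its partners Psmb8 at 1.81 ± 0.401 and Psmb9 at 0.514 ± 0.185, on the same scale. The peptide transporter chain Tap2 stood at 5.22 ± 0.682 and its partner Tap1 at 1.62 ± 0.421 CPM per kb. Antisense or overlapping transcripts cover 18.5% of the exon bases of Tap2, 14.7% of Psmb8 and 24.9% of Tapbp on the opposite strand, so these 3 levels may include reads of their neighbours.

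B2m lay at 241.4, 297.4 and 438.4 CPM in the lowest, median and highest wild type heart and at 249.2, 293.1 and 371.4 CPM in the knockout. The groups overlapped nearly completely. For knockout against wild type the log2 fold change was -0.06 ± 0.12 (SE, edgeR adjusted p = 0.999), and it was 0.05 without W5.

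H2-K1 (chromosome 17, 33996012 to 34000619) lay at 92.2, 73.1, 139.5, 88.4, 133.3 and 85.7 CPM in W1 to W6 and at 102.1, 89.3, 70.2, 112.1, 75.1 and 89.0 CPM in K7 to K12. W3 and W5 stood above all other hearts, and the other 4 wild type hearts lay within the knockout range. The estimate on the log2 scale was -0.19 ± 0.14 (SE, edgeR unadjusted p = 0.205, adjusted p = 0.999), and -0.08 without W3. H2-D1 (chromosome 17, 35263094 to 35267497) had medians of 116.5 and 109.0 CPM in wild type and knockout and a log2 fold change of -0.13 ± 0.13 (SE, edgeR adjusted p = 0.999). H2-K1 and H2-D1 share 8.8% and 14.3% of their 50-base stretches with other class I genes.

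Nlrc5 (chromosome 8, 94434335 to 94527272), the transactivator of class I genes, had the largest estimate of the 45 genes. It lay at 5.73, 9.96, 18.9, 11.5, 14.2 and 6.73 CPM in W1 to W6 and at 10.04, 8.59, 6.98, 10.4, 4.21 and 7.198 CPM in K7 to K12. W3, W5 and W4 exceeded every knockout heart, while W1 and W6 each lay below 5 of the 6 knockout hearts. The log2 fold change was -0.50 ± 0.25 (SE), 29.2% below the wild type, and the 95% interval ran from -1.02 to 0.02 (edgeR unadjusted p = 0.060, adjusted p = 0.999). Leaving out W3 brought the estimate to -0.28. Psmb10 (chromosome 8, 105935728 to 105938392) had an estimate in the other direction, at 10.97, 16.7 and 23.2 CPM in the lowest, median and highest wild type heart and at 16.6, 20.96 and 24.9 CPM in the knockout. W4 was the lowest of all 12 hearts for Psmb10, and the groups overlapped. In edgeR the log2 fold change was 0.28 ± 0.14 (SE, edgeR unadjusted p = 0.063, adjusted p = 0.999), and 0.18 without W4. Over the 10 class I genes 2 estimates were above 0 and 8 below, with a median of -0.08, which ran from -0.18 without K10 to -0.01 without W3.

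The class II chains H2-Aa, H2-Ab1 and H2-Eb1 and the invariant chain Cd74 were expressed within the range of the class I genes. Cd74 (chromosome 18, 60803849 to 60812652), which guides class II molecules to the endosome, was the highest at 55.5 ± 17.7 CPM per kb, against 23.5 ± 7.45 for H2-Aa, 11.7 ± 3.11 for H2-Ab1 and 9.34 ± 2.63 for H2-Eb1 (SD, n = 12 hearts). The regulator Ciita was at 0.275 ± 0.1498 CPM per kb, with 9 to 66 reads per heart. The spread within genotypes was the widest of the 5 role groups, with a median SD of 0.416 on the log2 scale, against 0.287 for class I, 0.323 for the induced genes and 0.254 for the transcription factors.

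H2-Ab1 (chromosome 17, 34263227 to 34269418) lay at 24.8, 30.9 and 42.95 CPM in the lowest, median and highest wild type heart and at 17.2, 24.3 and 39.8 CPM in the knockout. The groups overlapped, with K7 close to the highest wild type hearts and K9 the lowest of all 12. For knockout against wild type the log2 fold change was -0.27 ± 0.17 (SE, edgeR unadjusted p = 0.131, adjusted p = 0.999). Cd74 lay at 70.3, 83.9 and 169.8 CPM in the wild type and at 57.7, 84.6 and 117.2 CPM in the knockout, so that the medians were alike while the highest value, in W5, was in the wild type. Its log2 fold change was -0.22 ± 0.18 (SE, edgeR unadjusted p = 0.239, adjusted p = 0.999), and -0.01 without W5. Ciita (chromosome 16, 10480014 to 10531064) ran from 1.51 to 5.36 CPM in the wild type and from 0.7998 to 4.52 CPM in the knockout, with a log2 fold change of -0.24 ± 0.38 (SE, edgeR adjusted p = 0.999). That estimate was 0.04 without W3. All 5 class II estimates were below 0, with a median of -0.22, and the median was -0.01 without W3 or without W5, -0.13 without K9 and -0.08 without K12.

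Without W2 and K7 together, 5 of the 44 members tested reached an unadjusted p under 0.05 in edgeR, all with estimates below 0. The share of all genes in this fit is not given here, so the count has no background beside it. They were H2-K1 at -0.31, Nlrc5 at -0.62, H2-Ab1 at -0.45, Cd74 at -0.40 and Ifi35 at -0.43 on the log2 scale, and each had an adjusted p of 0.965. W2 carried the most red cell RNA, with a summed level of 30606 CPM over 5 red cell markers against 4560 to 14164 CPM in the other 11 hearts. K7 carried the most liver RNA of the knockout hearts, with 73.2 CPM over 6 liver markers against 2.22 to 12.1 CPM in the other 5, all above the wild type. W2 was among the 3 lowest hearts for 18 of the 45 members and among the 3 highest for 3. K7 was among the 3 highest for 15 and among the 3 lowest for 7. Leaving out 2 such hearts can lower estimates whatever their liver or red cell RNA, so this fit cannot test it. The part of liver and red cell RNA in the member values was not tested. The same fit moved the class I median from -0.08 to -0.16 and the class II median from -0.22 to -0.31. The median of the induced genes moved from -0.06 to -0.08, that of the transcription factors from -0.04 to -0.003, and that of the receptor chains stayed at 0.01. In this fit H2-D1 stood at -0.22, B2m at -0.12, Gbp2 at -0.15 and Irf7 at 0.04. Of the 44 members it tested, 33 had estimates below 0, and 7 had changed sign.

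For most of the set, hearts of 1 genotype differed widely from each other, and the same few hearts were high or low. W3 was the highest of the 12 hearts for 18 of the 45 genes and among the 3 highest for 35. W5 was the highest for 8 genes and K10 for 5, and K10 was among the 3 highest for 20. Together W3, W5 and K10, chosen here because they were high, held the top value in 31 of 45 genes (68.9%), against 20.6% of all 13832 genes tested. K11 was the lowest for 12 genes, was among the 3 lowest for 24 and was among the 3 highest for none. K12 was the lowest for 9 and K9 for 7, of which 4 were class II genes.

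**Figure D3:**
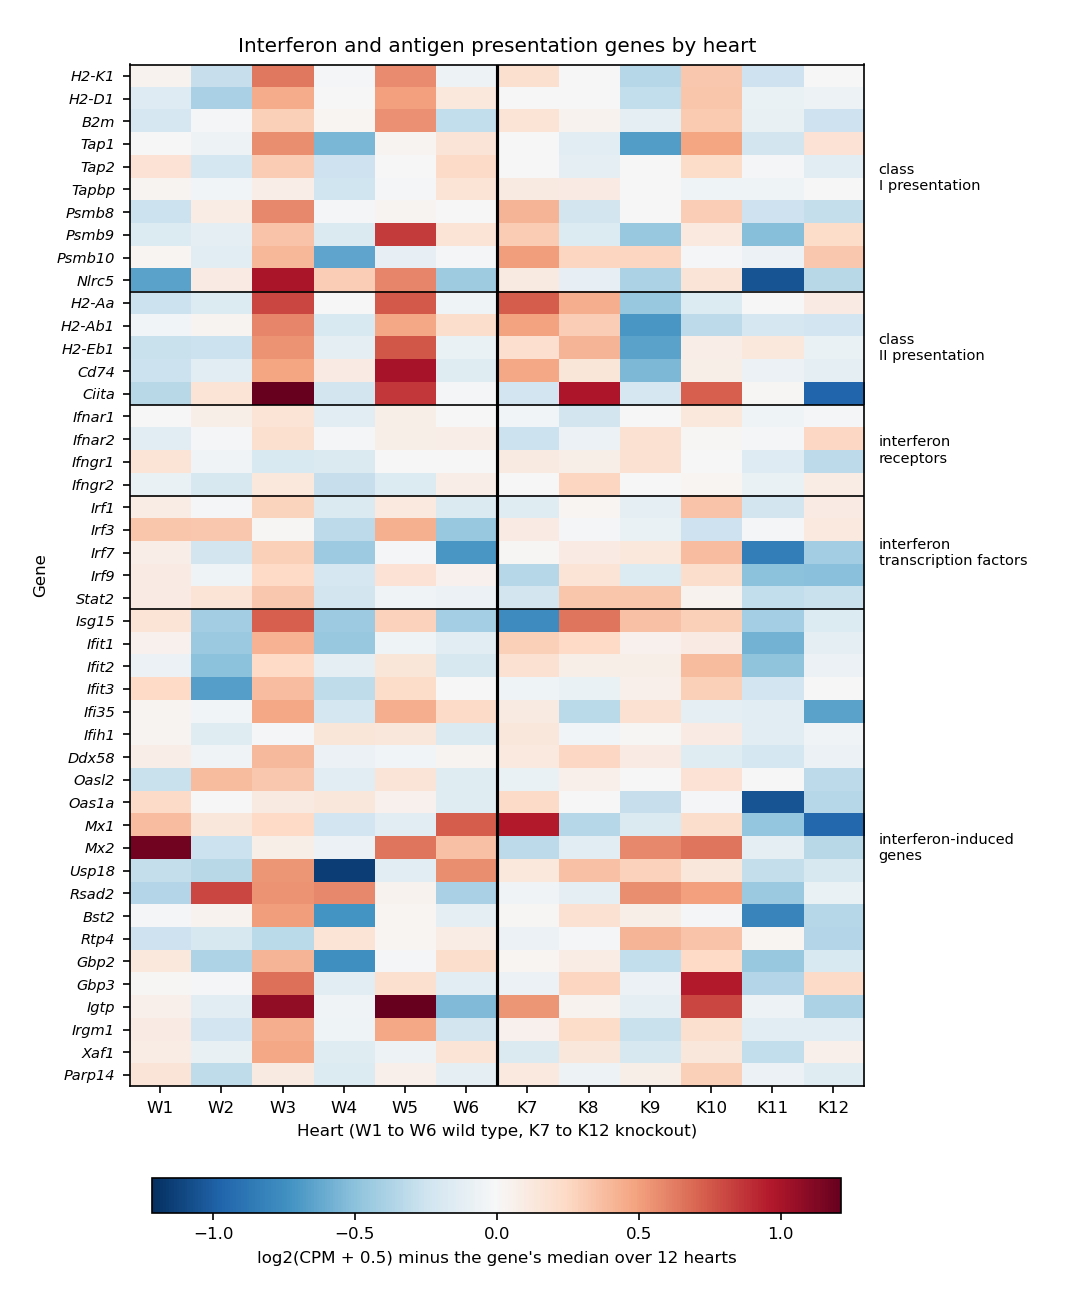
Heat map of the 45 genes (y axis, grouped by role) in the 12 hearts (x axis; wild type left of the line, knockout right), coloured by log2(CPM + 0.5) minus the gene's median over all hearts. W3 is red for most genes (above the gene's median in 42 of 45) and K11 blue (above it in 4 of 45), and columns differ within both genotypes.

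The role groups did not share one order of hearts. For the 21 interferon-induced genes, the median deviation from the gene medians was 0.41 in W3 and 0.21 in K10 on the log2 scale, and -0.29 in K11. For class I genes it was 0.43 in W3, 0.27 in W5 and 0.26 in K10, and -0.20 in K9. For class II genes W5 was the highest at 0.75, followed by W3 at 0.59, K7 at 0.47 and K8 at 0.42, and K9 was the lowest at -0.55, whereas K10 was near the middle at 0.07. The median over the receptor chains deviated by at most 0.15 in either direction in any heart. A heart high in induced genes was thus not always high in class II genes, as K10 shows.

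**Figure D4:**
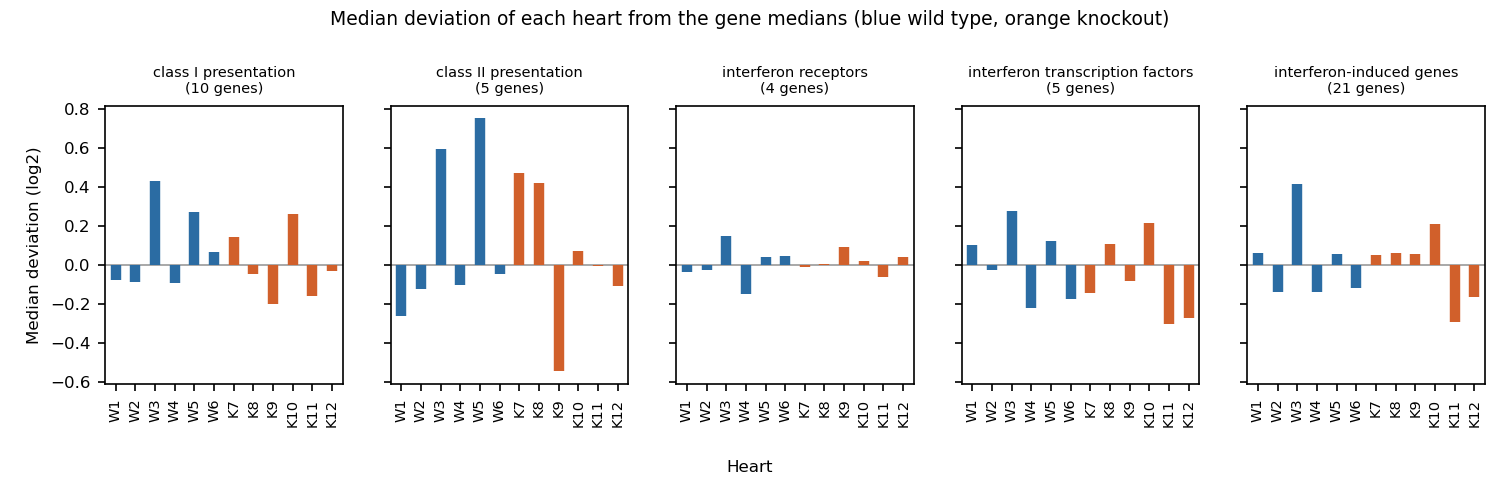
Median deviation of each heart (x axis) from the gene medians over all hearts (y axis, log2), for the 5 role groups; blue bars are wild type hearts and orange bars knockout hearts. W3 is well above 0 in 4 of the panels, W5 and K9 are the extremes of class II presentation at 0.75 and -0.55, and the receptor panel stays within 0.15 of 0.

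The sum of the macrophage markers was not highest in W3. The summed level of 8 macrophage markers was 158.3 to 253.9 CPM in the wild type and 184.4 to 196.1 CPM in the knockout, with W6 highest and W3 at 184.7 CPM. Single markers can differ from this sum. The marker Cd68 had an r of 0.851 in the wild type and 0.178 in the knockout with H2-Ab1, a gene highest in W3 (n = 6 each). The 7 dendritic cell markers summed to 16.2 to 22.3 CPM in the wild type, with W3 and W5 the highest at 22.3 and 21.4 CPM, and to 16.2 to 18.4 CPM in the knockout; 4 of the 7 had a mean under 1 CPM. The 5 B cell markers summed to 1.35 to 5.80 CPM in the wild type and 1.39 to 4.60 CPM in the knockout, and the 7 T and NK cell markers to 1.49 to 5.73 and 1.87 to 3.45 CPM, each marker with a mean under 1 CPM. Neutrophil markers, 4 of 5 matched, summed to 26.8 to 44.8 CPM in the wild type, with W3 highest. In the knockout they summed to 26.5 to 40.8 CPM, with K10 highest and K11 lowest. Of these 4 markers, 3 had a mean under 1 CPM and only Cxcr2 was tested, so the sum is close to the level of 1 gene. Endothelial markers summed to 681.7 to 778.2 CPM in the wild type and 694.5 to 796.4 CPM in the knockout, fibroblast markers to 1218 to 1560 and 1347 to 1715 CPM, and cardiac myocyte markers, the defining ones of the organ, to 36601 to 44003 and 36081 to 40648 CPM. The part of these cell types in the member levels was not tested.

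In a further list of 51 tested interferon-induced genes outside the 45, 31 had their top value in W3, W5 or K10 (60.8%). Over all genes tested this share was 20.6%. Of the 51 genes, 30 had their lowest value in W4, W6, K9, K11 or K12, where 6541 of all 13832 genes tested had theirs. In the 19 other class I genes tested, 9 had their top value in W3, W5 or K10, and the median deviation was 0.05 in W3 and 0.03 in K10. The 55 listed interferon-induced genes summed to 1793 CPM in W3 and 1691 CPM in K10, against 1185 CPM in K11, the lowest heart. These lists were drawn up with earlier results of these data known.

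Pairs of a regulator and a known target were compared over the 12 hearts as log2(CPM + 0.5). The class II chain H2-Ab1 and the macrophage marker Cd68 were compared in the same way, which made 5 pairs in all. The genes of a pair share library and depth in each heart. Nlrc5 and H2-K1 had a Pearson r of 0.752 (permutation p = 0.00508, adjusted over 5 pairs p = 0.025) and a Spearman rho of 0.636 (permutation p = 0.029, adjusted p = 0.072; n = 12). Without K11 and W3, the 2 hearts farthest from the Nlrc5 median, r was 0.575 (permutation p = 0.082, adjusted p = 0.206) with 10 hearts, which no longer passes. Irf7 and Isg15 had an r of 0.681 (permutation p = 0.016, adjusted p = 0.040) and a rho of 0.713 (permutation p = 0.012, adjusted p = 0.061; n = 12), and an r of 0.652 without K11 and W6 (permutation p = 0.048, adjusted p = 0.206), which no longer passes.

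Within genotypes, with 6 hearts each, Nlrc5 and H2-K1 had an r of 0.700 in the wild type (exact permutation p = 0.119) and 0.791 in the knockout (exact permutation p = 0.042), and neither passed after adjustment. Irf7 and Isg15 had an r of 0.889 (exact permutation p = 0.028) and 0.530 (exact permutation p = 0.303), again with neither passing after adjustment. Ciita and H2-Ab1 had an r of 0.932 in the wild type (exact permutation p = 0.019, adjusted p = 0.069) and 0.229 in the knockout (exact permutation p = 0.647), and H2-Ab1 and Cd68 had 0.851 (exact permutation p = 0.042, adjusted p = 0.069) and 0.178 (exact permutation p = 0.714). The difference between genotypes was not tested. Over all 12 hearts, Irf1 and the immunoproteasome gene Psmb9, whose shared promoter with Tap1 is shown above, had an r of 0.469 and a rho of 0.552 (permutation p = 0.132 and 0.067; adjusted p = 0.165 and 0.112). Ciita and H2-Ab1 had an r of 0.516 and a rho of 0.413 (permutation p = 0.086 and 0.187; adjusted p = 0.144 and 0.234). H2-Ab1 and the macrophage marker Cd68 had an r of 0.344 and a rho of 0.315 (permutation p = 0.275 and 0.321; adjusted p = 0.275 and 0.321).

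**Figure D5:**
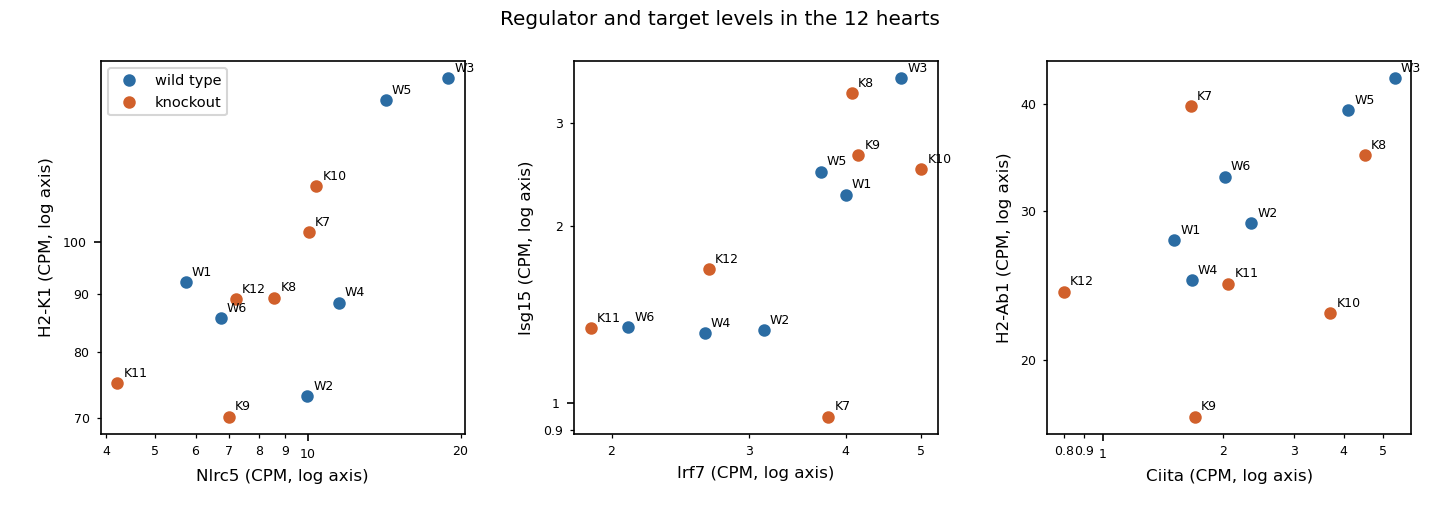
Level of a regulator (x axis, CPM, log axis) against that of a known target (y axis, CPM, log axis) in each heart, blue wild type and orange knockout, for Nlrc5 and H2-K1, Irf7 and Isg15, and Ciita and H2-Ab1. W3 is at the upper right of all 3 panels, and K11 is at the lower left of the first panel with 4.21 CPM of Nlrc5 and 75.1 CPM of H2-K1.

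Further genes of the same pathways were read from lists beside the 45. Of 19 other class I genes tested, 0 were called and 0 reached an unadjusted p under 0.05 in edgeR. Psmb6, the standard proteasome subunit that Psmb9 replaces, had a log2 fold change of -0.12 ± 0.090 (SE), and the non-classical heavy chain H2-T22 had -0.19 ± 0.15 (SE), and -0.04 without W3. Of 16 other class II genes 11 were tested and 0 called. H2-DMa, a chain of the H2-DM molecule that loads peptides onto class II, lay at 2.27, 2.65 and 4.33 CPM in the lowest, median and highest wild type heart and at 1.39, 1.51 and 2.21 CPM in the knockout. All 6 knockout hearts lay below all wild type hearts, as for 0.116% of all genes tested, but the lowest wild type heart and the highest knockout heart lay close together, at 2.27 and 2.21 CPM. The estimate on the log2 scale was -0.80 ± 0.25 (SE, edgeR unadjusted p = 0.00458, adjusted p = 0.999). Ifi30, the lysosomal thiol reductase of class II processing, had 0.42 ± 0.31 (SE).

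Of 26 genes of interferon signalling and nucleic acid sensing 21 were tested and 0 called. Dhx58, the regulator of RIG-I-like sensing LGP2, had a log2 fold change of -1.10 ± 0.39 (SE, edgeR unadjusted p = 0.011, adjusted p = 0.999), from medians of 2.11 CPM in the wild type and 0.865 CPM in the knockout with overlapping ranges. Tlr3, the endosomal sensor of double-stranded RNA, had 0.15 ± 0.084 (SE). The ligands Ifnb1, Ifng, Ifnl2 and Ifnl3 had 0 reads in all 12 hearts, which allows up to 0.0211 CPM over all hearts together and 0.225 to 0.282 CPM in any 1 heart (3 counts of the library total). The class II pseudogene H2-Ea-ps was also at 0 reads. Of 55 other interferon-induced genes 51 were tested and 0 called. Tor3a had a log2 fold change of 0.27 ± 0.11 (SE, edgeR unadjusted p = 0.026, adjusted p = 0.999), and the exonuclease Isg20 had -0.71 ± 0.30 (SE, edgeR unadjusted p = 0.030, adjusted p = 0.999).

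Of the 45 genes, 10 lie in the major histocompatibility region of chromosome 17, from Tapbp at 33919478 to the end of H2-D1 at 35267497. They are H2-K1, H2-D1, Tap1, Tap2, Tapbp, Psmb8, Psmb9, H2-Aa, H2-Ab1 and H2-Eb1. Of these, Tapbp, the tapasin chaperone, was the steadiest, with 89.0 to 118.1 CPM in the wild type and 101.3 to 113.4 CPM in the knockout and a log2 fold change of 0.02 ± 0.070 (SE). Psmb9, which lies beside Tap1 on the other strand, was the least precise, with 12 to 46 reads and a log2 fold change of -0.31 ± 0.30 (SE). The neighbouring genes thus differed in level and in spread within 1 region.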

How the data were processed

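The deposited file is a table of raw counts of reads per gene, made by the authors before deposit; genes are NCBI identifiers, of which 23976 matched a symbol and 85 did not. The tools named in the submitters' processing notes are TopHat, DESeq, bcl2fastq and CASAVA 1.8, with the mm10 build. The counting program, annotation, strand setting and handling of multi-mapped reads were not given in the sources used here. Groups came from the genotype labels.

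Counts were fitted with edgeR 4.0.16 in R 4.3.3 (filterByExpr with a minimum count of 10 and a minimum total of 15, TMM, quasi-likelihood F test, Benjamini-Hochberg adjustment over 13832 genes, two-sided). Levels per length used the union of GENCODE M21 exons. Correlations used 100000 permutations, or all of them with 6 hearts. Alternatives used DESeq2 1.42.0, limma 3.58.1 and sva 3.50.0. The scripts were tested on simulated data. Named genes were Slc4a4, the 2 smallest p and the highest level per length of each role group, 7 fixed genes, and the 2 smallest p of each further list; other members were named after their values were seen. The 45 genes, the lists and the tests were chosen with earlier results of these data known.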

Additional observations from a re-analysis of the deposited data

Results flagged for a closer look

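A heart stood far from the other 5 of its genotype, by Dixon's test of the gap over the range, in 6 of 110 sets of values; chance gives about 5.5 at 1 in 20. Tap2 was 22.7 CPM in K10, with 19.4 CPM in the next knockout heart. Psmb8 was 9.01 CPM in W3 against 6.27 CPM in the next, Ddx58 was 40.1 CPM in W3 against 32.1 CPM, and Gbp3 was 26.7 CPM in W3 against 19.1 CPM. Gbp3 was also far out in K10, at 32.9 CPM against 20.01 CPM. The total count of K7 was 12757000 to the nearest 1000, against 11351800 in the next knockout heart. W3 and K10, which hold the 5 member values, are the hearts that were high across most interferon-induced genes.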

How the results depend on the processing

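The count of members called was 0 under every alternative run, the looser adjusted p of 0.1 included. Over all genes the count called was 0 in the edgeR fit, 11 with DESeq2, 16 with all genes of at least 1 read, 2 with 1 surrogate variable, 3 at an adjusted p of 0.1, and 0 to 2 when each heart was left out in turn. Members at an unadjusted p under 0.05 numbered 1 with no filter (Nlrc5), 2 with the surrogate variable (Psmb10, Ifngr2), 5 without W2 and K7, and 0 to 3 with 1 heart left out. The shares of all genes in these fits are not given here. Slc4a4 passed at -0.81 with DESeq2 (adjusted p = 0.000605), at -0.81 with no filter (adjusted p in edgeR = 0.014) and at -0.92 without K8, with -0.92 to -0.74 over the left-out hearts. Isg15 was -0.00177 with upper-quartile scaling and -0.027 with limma-voom. With 1 heart left out, 1 to 12 of the 45 estimates changed sign, most without W3; among the genes named by rule these ran from -0.13 to 0.055 (B2m), -0.098 to 0.036 (Irf1), -0.18 to 0.040 (Gbp2), -0.033 to 0.21 (Irf7), -0.52 to 0.040 (Ciita) and -0.18 to 0.24 (Isg15). The count of negative estimates, added after seeing the data, was 31 to 34 under the other fits and 22 to 36 with 1 heart left out. The correlations of Irf7 with Isg15 and of Nlrc5 with H2-K1 lost the threshold without the 2 farthest hearts (r = 0.652 and 0.575), in the wild type alone (0.889 and 0.700) and in the knockout alone (0.530 and 0.791), where fewer hearts entered. The other causes were not tested. No paired analysis was possible because the wild type numbers 1 to 6 and the knockout numbers 7 to 12 have none in common. Depth limits Isg15, Irf7, Mx1, Mx2, Ciita, Oas1a and Psmb9, with at most 66 reads in any heart, and p-values cover the spread between these hearts.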
